A study of Bos taurus with 4 samples.

Results

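HEBP2, a heme-binding protein, and 9 partners in heme and iron handling were examined in expanded bovine blastocysts developed from vitrified and from control morulae. The partners were HEBP1, HMOX1, HMOX2, BLVRA, BLVRB, FTH1, FTL, TFRC and FECH, and every array probe whose platform annotation gives 1 of these 10 symbols was taken. This gave 11 probes for 8 genes, of 43794 probes on the array, and all 11 were among the 28856 probes bright enough to be tested. HEBP1 and FTL were matched by no symbol and were not analysed here. HEBP2 was picked by the study for its difference on these same arrays, so its values are a description without a test.

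Embryos were produced in vitro from oocytes of slaughterhouse ovaries and semen of 1 bull, and compact morulae were either left unfrozen (control) or vitrified in ethylene glycol and dimethyl sulfoxide with sucrose, held in liquid nitrogen on a cryotop carrier and warmed. Both groups were then cultured to the expanded blastocyst stage, so the comparison concerns survivors that reached that stage. RNA of pooled blastocysts, 7 per pool by the labels, was amplified and hybridized to 4 two-colour EmbryoGENE EMBV3 arrays of 1 slide. Each array held 1 vitrified and 1 control pool, with Cy5 on the vitrified pool in arrays 1 and 2 and Cy3 in arrays 3 and 4. Breed, embryo sex and the fertilization cycle of each array are not given. The labels give day 7 for the collection of morulae, which differs by a day from their own protocol text. Nothing can be said of protein or heme, since RNA alone was measured.

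Heme is made in mitochondria, where ferrochelatase places iron into the porphyrin ring, and it is bound in the cytosol by carrier proteins. Heme oxygenases open the ring and release the iron, and biliverdin reductases turn the resulting biliverdin into bilirubin. Cells take up iron through the transferrin receptor and store it in ferritin, and iron left free can drive lipid peroxidation, the reaction behind ferroptotic cell death.

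The background threshold of each dye and array was the average of 153 negative controls plus 2 SD, and 60.1% to 67.3% of the probes lay above it in a given pool. All 17 trophectoderm markers with a probe were above background in all 8 readings, as were 10 of 12 inner cell mass and 7 of 8 hypoblast markers. Of 12 cumulus cell markers, 3 were above background in all 8 readings and HAS2, LHCGR, AMH and FOXL2 in none. The vitrified over control log2 ratios of different arrays were weakly related across probes, with r from -0.15 to 0.19. No probe of the array passed an adjusted p under 0.05 (lowest 0.177, limma with Benjamini-Hochberg adjustment), while 2230 had an unadjusted p under 0.05. With 4 arrays the precision of every value is limited, and in pools of whole embryos fewer cells of a type and less RNA per cell cannot be told apart.

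HEBP2, also known as SOUL, belongs to a small family named for heme binding and has been tied in human cells to permeability of the mitochondrial membrane. On its brightest probe, EMBV3_43300, the median spot signal in the vitrified pools of arrays 1 to 4 was 1208, 1913, 2597 and 3205 scanner units. The control pools of the same arrays gave 3058, 7422, 10651 and 5087. The vitrified pool had the weaker signal on each array in both dye orientations, and all 8 readings were above background. Signals are given as scanned, and the dyes differ in gain and background, so the direction on an array is read from the normalized ratio.

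After subtraction of the local background, loess within and quantile normalization between arrays, the HEBP2 log2 ratio of vitrified over control was -0.91, -1.69, -2.39 and -1.13 on arrays 1 to 4. The log2 fold change was -1.53 (SE 0.23, SD 0.66, n = 4 arrays), a level 2.88-fold lower in blastocysts from vitrified morulae. On the log2 scale the normalized level of this probe was 11.00 ± 0.40 (SD, n = 4) in the vitrified and 12.53 ± 0.92 in the control pools. The groups did not overlap, but the highest vitrified pool, on array 4, lay only 0.0072 below the lowest control pool, on array 1. A full separation of this direction was found for 1.69% of the tested probes, and since the study chose HEBP2 on this contrast, nothing is read from it.

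The ratio was largest on array 3 and smallest on array 1, and arrays also differed in how widely all ratios spread, with an SD over all tested probes of 0.35, 0.44, 0.54 and 0.32 on arrays 1 to 4. In units of that SD, HEBP2 lay at -2.57, -3.81, -4.40 and -3.51. Between 0.0832% (array 3) and 0.683% (array 1) of tested probes had a lower ratio on the same array. Over the 4 arrays, 6 tested probes had a lower log2 fold change. The mean ratio was -1.30 on arrays 1 and 2 and -1.76 on arrays 3 and 4, so both dye orientations had the same direction.

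**Figure D1:**
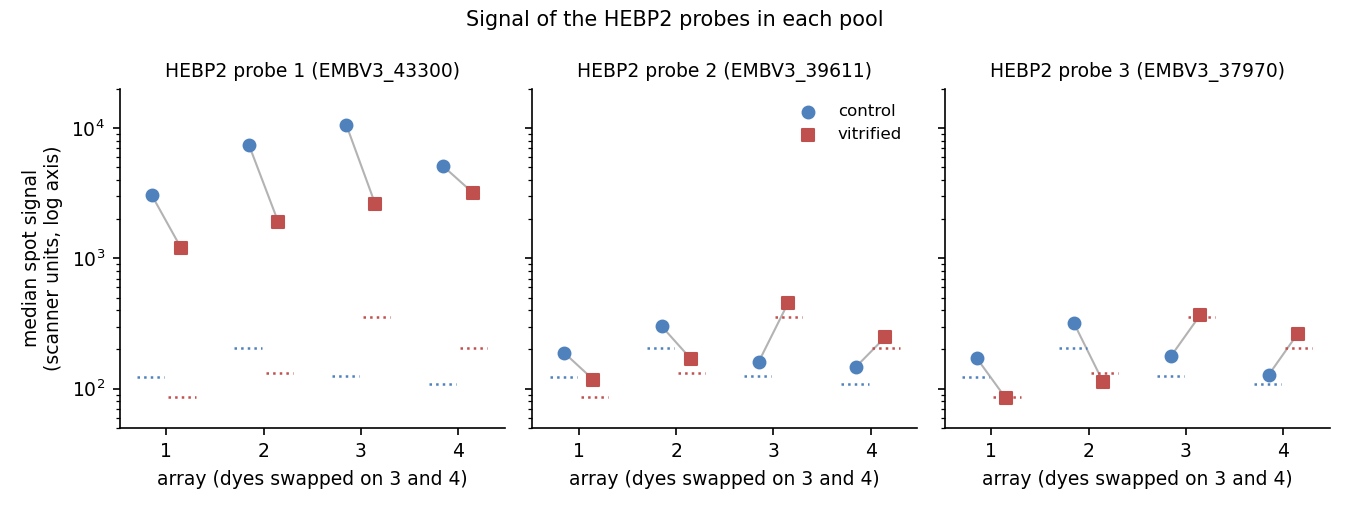
Median spot signal (scanner units, log axis) of the 3 HEBP2 probes in the control pool (circle) and the vitrified pool (square) of each array, joined by a line, with dotted lines at the background threshold of each dye and array. Probe EMBV3_43300 is far above background and lower in the vitrified pool on all 4 arrays, whereas the 2 other probes lie close to background.

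Both other HEBP2 probes were dim and had smaller differences. Probe EMBV3_39611 gave signals of 117, 170, 452 and 248 in the vitrified and 188, 302, 161 and 147 in the control pools of arrays 1 to 4. Its log2 ratios were -0.22, -0.28, 0.33 and -0.19, with a log2 fold change of -0.09 (SE 0.16, SD 0.28). This probe was above background in all 8 readings, but its direction on array 3 was opposite to that on the other arrays.

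Probe EMBV3_37970 of HEBP2 gave 84, 112, 370 and 264 in the vitrified and 171, 317, 179 and 127 in the control pools. Its vitrified readings on arrays 1 and 2 were not above background. The log2 ratios were -0.51, -1.13, -0.44 and 0.11, with a log2 fold change of -0.49 (SE 0.17, SD 0.51). The 3 HEBP2 probes thus disagreed in size, and the mean over them was -0.70. Where each probe lies in the transcript is not given in the sources used here, and the part of probe brightness or of the RNA amplification in this disagreement was not tested.

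HMOX1, the inducible heme oxygenase, is known to be raised by oxidative stress. Its probe gave signals of 77, 176, 315 and 206 in the vitrified pools of arrays 1 to 4 and 140, 318, 195 and 190 in the control pools. The control readings were all above background, but of the vitrified readings only that of array 2 was. The log2 ratios were -0.49, -0.31, -0.97 and -0.88, below 0 on all 4 arrays.

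HMOX1 had a log2 fold change of -0.66 (SE 0.15, n = 4 arrays), 1.58-fold lower in vitrified blastocysts, with an unadjusted p of 0.0015 and an adjusted p of 0.382 in limma over all probes. Normalized levels of the groups overlapped, with 6.63 to 7.45 in the vitrified and 7.12 to 7.88 in the control pools on the log2 scale. With 3 vitrified readings not above background the size is uncertain. HMOX1 passed the filter on dim probes through its control readings, so its p is a description. The unadjusted p stayed between 0.000238 and 0.00288 over 9 other ways of processing, and the adjusted p between 0.104 and 0.538.

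HMOX2, the constitutive heme oxygenase, gave signals of 534, 708, 719 and 1160 in the vitrified and 867, 1237, 1161 and 885 in the control pools, all above background. Its log2 ratios were -0.26, -0.36, -1.40 and -0.15. All 4 were below 0, and array 3 stood apart from the rest. The log2 fold change was -0.54 (SE 0.21), with an unadjusted p of 0.0276 and an adjusted p of 0.625 in limma. Without array 3 the value was -0.24 (unadjusted p of 0.247 in limma) and without array 2 it was -0.52 (unadjusted p of 0.0744), so the call at an unadjusted p under 0.05 was lost in both.

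The biliverdin reductases, which act after heme oxygenase, had no unadjusted p under 0.05. BLVRA gave 111, 161, 350 and 209 in the vitrified and 172, 274, 138 and 125 in the control pools, with the vitrified reading of array 3 not above background. Its log2 ratios were small and close together, at -0.19, -0.23, -0.15 and -0.24. This gave a log2 fold change of -0.21 (SE 0.14, adjusted p = 0.758 in limma, 95% interval -0.53 to 0.12).

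BLVRB, which reduces biliverdin and also flavins, was well above background, with 2938, 2453, 4439 and 6984 in the vitrified and 5555, 4384, 3300 and 2880 in the control pools. Its log2 ratios were -0.53, -0.52, 0.01 and 0.84, so vitrified pools were lower on arrays 1 and 2 and not on arrays 3 and 4. The mean was -0.52 in the first dye orientation and 0.43 in the other, and the dye term of the same fit had an unadjusted p of 0.0243 (adjusted p = 0.536), as 8.18% of all tested probes had under 0.05. Over both orientations the log2 fold change was -0.05 (SE 0.18, adjusted p = 0.961 in limma, 95% interval -0.45 to 0.35). Dye and array cannot be told apart within an orientation of 2 arrays.

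FTH1 encodes the ferritin heavy chain, which oxidizes iron for storage, and both its probes were bright without reaching the scanner's limit. Probe EMBV3_19578 gave 25710, 19426, 28358 and 20591 in the vitrified and 26768, 29732, 28174 and 26029 in the control pools. Its log2 ratios were 0.01, -0.64, -0.19 and -0.48, with a log2 fold change of -0.33 (SE 0.17, unadjusted p of 0.0828, adjusted p = 0.690 in limma). The vitrified pool was lower on arrays 2, 3 and 4 and level with the control on array 1. Without array 1 the value was -0.49, with an unadjusted p of 0.0317, and with separate channels the unadjusted p was 0.0340.

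Probe EMBV3_43626 of FTH1 gave 20622, 13208, 17366 and 21172 in the vitrified and 20605, 31057, 19667 and 16018 in the control pools. The log2 ratios were 0.17, -1.25, -0.47 and 0.19, below 0 on arrays 2 and 3 only. The log2 fold change was -0.34 (SE 0.24, adjusted p = 0.751 in limma), without array 2 it was 0.015, and without array 1 it was -0.70 with an unadjusted p of 0.00756. Ferritin heavy chain genes have processed copies in mammals, and whether these probes also read such copies was not tested.

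TFRC, the transferrin receptor through which cells take up iron, was the member with ratios above 0 on all 4 arrays. Its signals were 2390, 2563, 3838 and 3417 in the vitrified and 2902, 1888, 2536 and 2033 in the control pools. The log2 ratios were 0.14, 0.80, 0.18 and 0.29, and the highest was on array 2. On the log2 scale the fold change was 0.35 (SE 0.16), with an unadjusted p of 0.0610 and an adjusted p of 0.666 in limma, and the normalized levels of the groups overlapped. The unadjusted p was under 0.05 with no filter on dim probes (0.0458), with separate channels (0.0337) and without array 1 (0.0228, with a log2 fold change of 0.52).

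FECH, the ferrochelatase that completes heme, gave 207, 215, 551 and 344 in the vitrified and 363, 396, 343 and 234 in the control pools, all above background. Its log2 ratios were -0.35, -0.34, -0.19 and -0.21. All arrays were below 0 with little spread (SD 0.08), and the log2 fold change was -0.27 (SE 0.14, unadjusted p of 0.0922, adjusted p = 0.696 in limma).

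**Figure D2:**
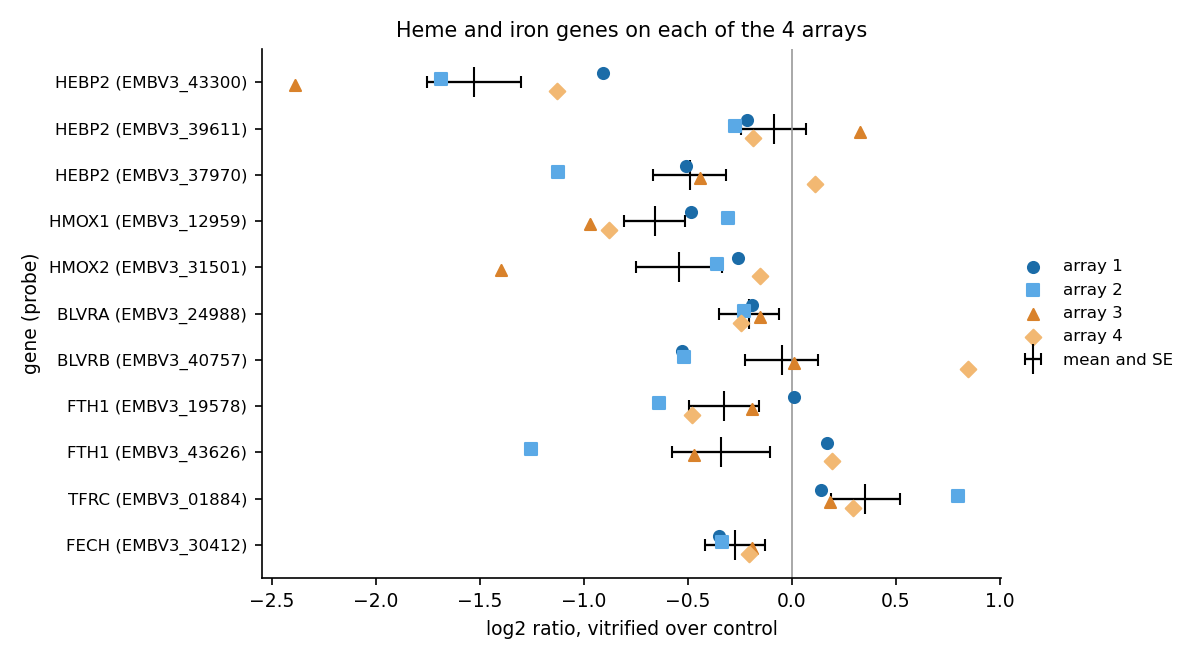
Log2 ratio of vitrified over control on each of the 4 arrays (symbols) for the 11 probes of the 8 genes, with the log2 fold change of the fit and its SE (black). HEBP2 probe EMBV3_43300 lies farthest to the left at -1.53, HMOX1, HMOX2, BLVRA and FECH are below 0 on all 4 arrays, and TFRC is above 0 on all 4.

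Of the 8 probes other than those of HEBP2, HMOX1 and HMOX2 (2) had a lower value with an unadjusted p under 0.05, where 4.39% of all tested probes were, and 0 were higher, where 3.34% were. None passed an adjusted p under 0.05 in limma, where the share of all probes was 0%. Their adjusted p ran from 0.382 to 0.961. HMOX1 passed the filter on dim probes through its control readings, where it was higher, so its call is not taken as support. With only probes above background in all 8 readings, HMOX2 alone was lower. The ratio was below 0 on all 4 arrays for 4 of the 8 probes (7.29% of all tested probes) and above 0 on all 4 for 1 (7.14%). Except for the brightest HEBP2 probe, the normalized levels of the groups overlapped for every probe. Over the 7 genes other than HEBP2, the median log2 fold change was -0.27, beside 0.0023 over 11391 tested genes. A gene was represented by its brightest probe, and the genes were chosen with earlier results of these arrays known.

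Trophectoderm markers had a median ratio below 0 on each array, as HEBP2 did. Of 17 tested markers of this outer epithelium, 15 had a log2 fold change below 0. In limma an unadjusted p under 0.05 was reached by 8 lower and 0 higher markers, where 5.31% and 3.52% of all tested genes were. The study itself reported KRT19 and PTGS2, among the lower markers, as lower on these same arrays, so this count is a description. The median log2 fold change of the 17 markers was -0.35, with medians of -0.20, -0.61, -0.97 and -0.16 on arrays 1 to 4. Like HEBP2, the markers had their largest difference on array 3 and the next on array 2. The order of arrays 1 and 4 was turned. Ratios of all tested probes also spread most widely on arrays 3 and 2 (SD 0.54 and 0.44). The summed normalized level of the markers ran from 153200 to 178100 in the vitrified and from 178700 to 266700 in the control pools. These ranges nearly touched. Over all tested genes the sum ran from 27210000 to 27940000 in the vitrified and from 27550000 to 28210000 in the control pools.

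Within the list, KRT19, a keratin, had a log2 fold change of -1.50 and CDX2, the lineage's homeobox factor, one of -0.17. Inner cell mass markers had a median of 0.36 over 11 tested genes. Of these, 4 higher and 1 lower (NANOG, -0.79) had an unadjusted p under 0.05 in limma, as 3.52% and 5.31% of all tested genes had. Hypoblast markers had a median of 0.14 over 8 tested genes, with medians of 0.24, -0.21, -0.39 and -0.02 on arrays 1 to 4. They too were lowest on array 3 and next on array 2. Of these genes, 1 higher and 2 lower had an unadjusted p under 0.05 in limma, beside the same shares of all tested genes. The higher gene, PDGFRA, had ratios of 1.25, 1.30, -0.54 and -0.14, and its dye term had an unadjusted p of 0.000489 in limma. FN1 also changed sign with the dye orientation, at 1.01, 1.35, -0.89 and -1.09. The study itself reported APOA1, among the lower genes, as lower on these same arrays, so this count is a description. Whether HEBP2 RNA comes from trophectoderm cells in these embryos was not measured, and the part of cell composition in its difference was not tested.

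**Figure D3:**
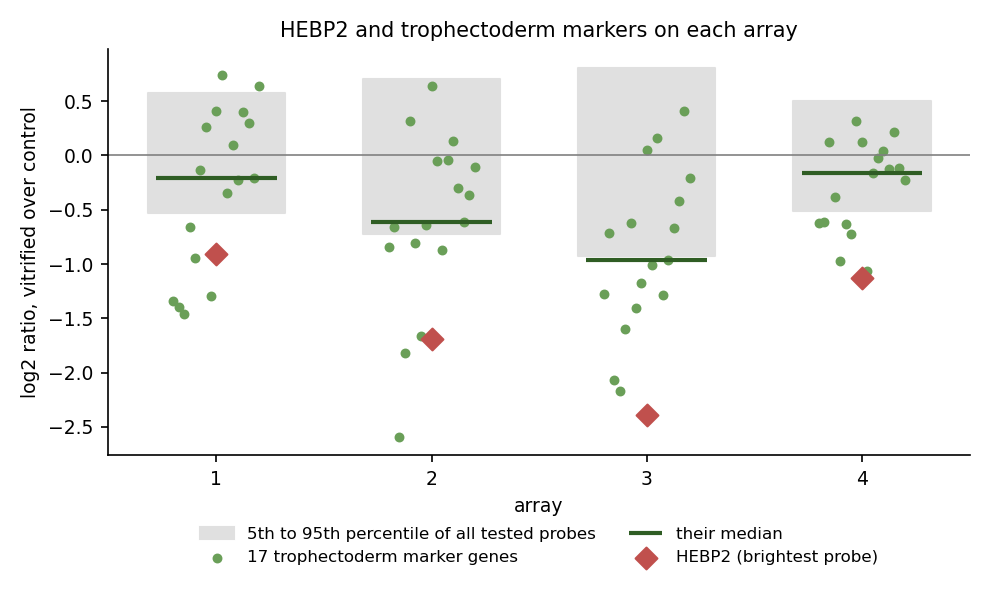
Log2 ratio of vitrified over control on each array for the brightest HEBP2 probe (diamond), 17 trophectoderm marker genes (points, with their median as a bar), and the range from the 5th to the 95th percentile of all tested probes (grey). HEBP2 lies below the grey range on all 4 arrays, and the marker median runs from -0.97 on array 3 to -0.16 on array 4.

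The 5 genes with ratios closest to those of HEBP2 over the 4 arrays were CHPT1, FADS2, AKR1B1, IFI30 and TMEM52. Closeness was the root mean square of the differences between log2 ratios, over 11391 genes by their brightest probe. CHPT1, which makes phosphatidylcholine, was at a distance of 0.246 with ratios of -0.79, -1.26, -2.57 and -1.01. FADS2, a fatty acid desaturase, was at 0.247 with -0.57, -2.02, -2.38 and -1.27. Both had their lowest ratio on array 3 and their highest on array 1, as HEBP2 did. Since the genes were picked for closeness in these ratios, nothing is read from the shared order. AKR1B1, an aldose reductase, was at 0.323, IFI30, a lysosomal thiol reductase, at 0.408 and TMEM52, a membrane protein, at 0.412. This is a description over 4 arrays of a gene chosen for its difference. The study also reported FADS2 and AKR1B1 as lower on these same arrays.

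Genes of heme and iron metabolism outside the members were then read off the same fit. Of 91 tested genes, an unadjusted p under 0.05 in limma was reached by 1 higher and 10 lower genes, where 3.52% and 5.31% of all tested genes were, and 0 passed an adjusted p under 0.05. The median log2 fold change was -0.09, beside 0.0023 over all tested genes. The ratio was below 0 on all 4 arrays for 14 genes (8.32% of all tested genes) and above 0 on all 4 for 3 (7.50%). The 10 lower genes include LCN2, which passed the filter on dim probes through its control readings.

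Heme synthesis had no called gene among 15 tested, members included, and its median log2 fold change was -0.13. UROS, which closes the porphyrin ring, had 0.44, FDX1, a ferredoxin, had 0.28 and ALAD, an early enzyme of the pathway, had -0.26. The UROS ratios were -0.18, 0.87, 1.13 and -0.06, so arrays 2 and 3 were high and arrays 1 and 4 were near 0. An unadjusted p under 0.05 appeared for UROS without array 1 (0.66) or array 4 (0.73) and for ALAD without array 1 (-0.44).

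Among 13 tested genes of heme transport and binding, HEBP2 included, the median was -0.08. ABCG2, an exporter of porphyrins and many drugs, had a log2 fold change of 0.43 (SE 0.16, unadjusted p of 0.0277, adjusted p = 0.625 in limma). GSTP1, a glutathione transferase that can bind heme, had -0.57 (SE 0.20, unadjusted p of 0.0200, adjusted p = 0.598), with ratios of -0.60, -1.72, -0.22 and 0.25 and its 2 other probes at -0.44 and -0.58. Array 2 was low for GSTP1 and array 4 was above 0. The unadjusted p was over 0.05 for GSTP1 without array 2 (-0.30), array 3 (-0.45) or the dye term, and for ABCG2 without array 2 (0.27) or array 4 (0.40). FLVCR2, a membrane transporter first described for heme, had -0.55 (unadjusted p of 0.0554), and -0.95 without array 1 or -0.72 without array 4, both with an unadjusted p under 0.05. So it was for FLVCR2, at 0.0308 to 0.0488, with no quantile normalization, no dye term, the robust fit, the authors' ratios or separate channels.

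The 10 tested genes of heme breakdown and its regulators had a median of -0.17. The members HMOX1 and HMOX2, counted above, and KEAP1 reached an unadjusted p under 0.05 in limma with a negative log2 fold change. With a positive one, 0 genes did. Of all tested genes, 5.31% and 3.52% reached it in these directions. HMOX1 passed the filter on dim probes through its control readings, so its call is no support here either. KEAP1, which keeps the stress factor NFE2L2 low, had a log2 fold change of -0.51 (SE 0.16, unadjusted p of 0.0123, adjusted p = 0.570 in limma), with ratios of -0.27, -0.81, -0.62 and -0.33. Without array 2 KEAP1 had -0.37 and without array 3 it had -0.44, both with an unadjusted p over 0.05. MAFG, a small partner of NFE2L2 and BACH1, had -0.32 (unadjusted p of 0.0589). For MAFG the unadjusted p was under 0.05, from 0.0302 to 0.0494, with normexp or no background subtraction, no filter on dim probes, no quantile normalization, the authors' ratios or separate channels.

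Iron uptake and export had a median of 0.03 over 13 tested genes, TFRC included. LCN2, which binds iron-carrying siderophores, had -0.53 (SE 0.22, unadjusted p of 0.0416, adjusted p = 0.636 in limma). It was above background in 1 of 4 vitrified readings, so its size is uncertain. LCN2 passed the filter on dim probes through its control readings, so its call is not taken as support. The call was lost for LCN2 without array 1 (-0.52), array 2 (-0.50) or array 3 (-0.18), and with normexp or no background subtraction. SLC40A1, the iron exporter ferroportin, had -0.42 and ratios of -0.50, 0.05, -1.34 and 0.12, without a common direction. SLC11A1, a metal transporter of phagosomes, had 0.32. Without array 4, SLC40A1 (-0.78) and SLC11A1 (0.49) had an unadjusted p under 0.05.

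For iron storage and its release, the median of 8 tested genes was -0.16 with FTH1 included. NCOA4, the receptor that delivers ferritin to autophagy, had -0.36 on its brightest probe (SE 0.15, unadjusted p of 0.0396, adjusted p = 0.634 in limma), and 0.23 and -0.21 on other probes, so its probes did not share a direction. The call for NCOA4 was lost whichever array was left out, at values from -0.41 to -0.30, and with the stricter filter or the robust fit. PCBP1, an iron chaperone, had -0.19 and HERC2, a ubiquitin ligase that acts on NCOA4, had -0.18.

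Iron sensing held 5 tested genes, with a median of -0.13 and none called. ACO1, which becomes iron regulatory protein when its iron-sulfur cluster is lost, and FBXL5, the iron-sensing ligase subunit, both had -0.21. SKP1 and CUL1, general subunits of that ligase, had 0.38 and -0.13, and SKP1 had an unadjusted p under 0.05 without array 4 (log2 fold change 0.59), with no filter on dim probes (p of 0.0476) and with separate channels (p of 0.0228).

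The 28 tested genes of mitochondrial iron and iron-sulfur clusters had a median of -0.07, with 3 lower and 0 higher at an unadjusted p under 0.05, where 5.31% and 3.52% of all tested genes were. ISCA2, an assembly factor of mitochondrial clusters, had -0.50 (SE 0.15, unadjusted p of 0.0085, adjusted p = 0.541 in limma), with all 4 ratios between -0.65 and -0.31. FAM96B, a cytosolic cluster targeting factor, had -0.47 (unadjusted p of 0.0129) and NUBPL, which serves respiratory complex assembly, had -0.44 (unadjusted p of 0.0187). ISCA1, the partner of ISCA2, had 0.36 (unadjusted p of 0.0747), so the partners had opposite signs, and its unadjusted p was under 0.05 without array 1 (log2 fold change 0.51) or array 4 (0.54). With no quantile normalization, the authors' ratios or separate channels the unadjusted p of ISCA1 was 0.0452 to 0.0458. Calls were lost for FAM96B without array 2 (-0.42) or array 3 (-0.40) and for NUBPL without array 1 (-0.40), array 2 (-0.47) or array 3 (-0.35).

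Genes that act in ferroptosis had a median of -0.25 over 9 tested genes, most of them guards against it. Below 0 were 6 genes, and above 0 were 3. These 3 were the guards DHODH (0.31) and SLC7A11 (0.13), and ACSL4 (0.23), which promotes ferroptosis. An unadjusted p under 0.05 was reached by 3 lower and 0 higher genes, where 5.31% and 3.52% of all tested genes were. AIFM2, which regenerates ubiquinol at membranes, had -0.69 (SE 0.18, unadjusted p of 0.0041, adjusted p = 0.456 in limma), with ratios of -0.72, -1.40, -0.64 and -0.02. Arrays 1 to 3 were low for AIFM2 and array 4 was near 0. GCLM, the modifier subunit of glutathione synthesis, had -0.49 (SE 0.15, unadjusted p of 0.0087, adjusted p = 0.541) and its ratios lay between -0.61 and -0.38.

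GCH1, which starts tetrahydrobiopterin synthesis, had -0.60 (unadjusted p of 0.0164) with other probes at -0.50, 0.07 and -0.28, and without array 3 it had -0.30 with an unadjusted p of 0.156. GCLC, the catalytic partner of GCLM, had -0.25 (unadjusted p of 0.143). Of the genes outside the members with an unadjusted p under 0.05, ISCA2, AIFM2 and GCLM kept it whichever array was left out. ABCG2, GSTP1, KEAP1, LCN2, NCOA4, FAM96B, NUBPL and GCH1 lost it without at least 1 array as given beside each.

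**Figure D4:**
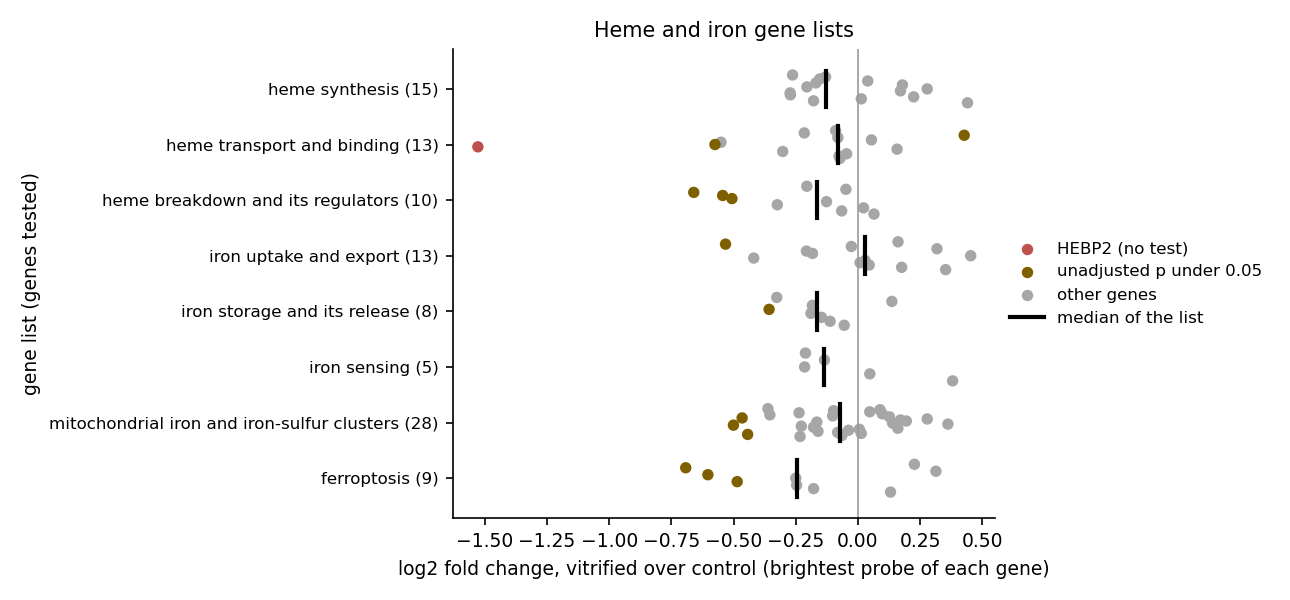
Log2 fold change of vitrified over control for each tested gene of 8 heme and iron lists, by its brightest probe, with the list median as a bar and the number of genes tested in brackets. Medians run from -0.25 (ferroptosis) to 0.03 (iron uptake and export). HEBP2, chosen by the study for its difference, lies apart at -1.53 by its brightest probe. Its other probes, not drawn, had -0.49 and -0.09.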

How the data were processed

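Blastocyst pools from vitrified and control morulae were compared on 4 arrays of 1 slide. The slow-freezing arrays and qRT-PCR were not analysed here. Spot intensity was deposited for each dye as the median signal and the median of the local background, without subtraction. The authors also deposited normalized log2 values, Cy5 over Cy3 on every array, which were not turned for the dye. They correlated with the loess ratios of the same arrays at r of at least 0.99999. Columns from samples outside the series numbered 0.

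The intensities were read in R 4.3.3 with the data.table package, version 1.17.8, and analysed with limma 3.58.1. Background-subtracted values at or under 0 were set to 0.5, followed by loess within and quantile normalization between arrays. Of 43794 probes that are not control spots, 28856 were above the mean of 153 negative controls plus 2 SD in at least 4 of 8 readings and free of spots marked as ignored. Of the probes, 117 had such a spot, none of them a member's. The model had terms for group and dye (2 residual and 6.92 prior degrees of freedom), with two-sided p values adjusted over all tested probes with Benjamini-Hochberg. At the study's threshold a probe had an unadjusted p under 0.05 and differed at least 2-fold.

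Named genes were all members with all probes, up to 4 genes with the smallest p of each heme or iron list, and the 5 genes with ratios nearest to HEBP2. KRT19, CDX2, other cell type markers, the globins, ACSL4, DHODH and SLC7A11 were added after their values were seen. Members, lists and rules were chosen with earlier results of these data known. Gene symbols came from the platform annotation, and 14114 of 15229 symbols were current names in the ARS-UCD2.0 gene list given, while 982 were synonyms. By the study's methods, the 4 microarray replicates came from separate cycles of fertilization and cryopreservation, with a tube per treatment in each cycle. The labels do not name the cycle of each array, and p values measure the spread between these arrays. The fit was tested on simulated data. Alternatives were no background subtraction, normexp with an offset of 50, no filter or a stricter one on dim probes, no dye term, median centring, an intensity trend with a robust fit, no quantile normalization, the authors' ratios, separate channels, the mean over a gene's probes, and each array left out in turn.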

Additional observations from a re-analysis of the deposited data

Results flagged for a closer look

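In 3 of 46 sets of 4 ratios checked, 1 array stood apart from the other 3 by more of the range than Dixon's critical value for 4 samples. Chance alone is set to mark about 1 set in 20. The dim HEBP2 probe EMBV3_39611 had a log2 ratio of vitrified over control of 0.33 on array 3, whereas the others lay between -0.28 and -0.19. HMOX2 had -1.40 on array 3, with the others between -0.36 and -0.15, and its difference at an unadjusted p under 0.05 was lost without that array. ALAD, an early enzyme of heme synthesis, had 0.35 on array 1, with the others between -0.52 and -0.38.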

How the results depend on the processing

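The log2 fold change of the brightest HEBP2 probe lay between -1.55 and -1.52 under 10 alternatives that keep all 4 arrays, at -0.70 as the mean over its 3 probes, and between -1.85 and -1.21 with 1 array left out. Leaving out an array leaves 1 array of that dye orientation, which then has the weight of both arrays of the other. Among the 8 other member probes, TFRC (1 probe) was higher, by the unadjusted p, with no filter on dim probes and with separate channels, and 3 were lower with separate channels (FTH1 probe EMBV3_19578 added) and 1 with probes above background in all 8 readings. That filter gave no value for HMOX1, BLVRA and HEBP2 probe EMBV3_37970. Without 1 array, 1 to 4 were lower (4 without array 1) and 0 to 1 higher, and 0 passed the adjusted p. Signs turned without array 2 for FTH1 probe EMBV3_43626 (range with each array left out -0.70 to 0.015), without array 3 for BLVRB (-0.26 to 0.16) and HERC2 (-0.39 to 0.028), and without array 4 for HEBP2 probe EMBV3_39611 (-0.23 to 0.039). Over all probes, 2 passed an adjusted p under 0.05 with an intensity trend and robust fit, 21 with separate channels and 2 to 280 without 1 array (280 without array 4), whereas the study's threshold gave 19 to 73 higher and 21 to 201 lower probes, beside 21 and 43 with all arrays. The median of heme and iron genes outside the members stayed between -0.11 and -0.05 under all alternatives. The causes were not tested. Low signal over background limits HMOX1, BLVRA, LCN2 and 2 HEBP2 probes.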

Other observations

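Globin probes, read as markers of erythroid cells, gave values that belong to no comparison above. HBG had log2 ratios of vitrified over control of 1.596, 2.33, -1.06 and 2.56 on arrays 1 to 4, and a log2 fold change of 1.36 (SE 0.46, unadjusted p of 0.0166, adjusted p = 0.591 in limma). HBB had 1.35, 0.69, -0.95 and 1.31, with a log2 fold change of 0.60 (adjusted p = 0.694), and HBA had 0.03. HBG and HBB were thus higher in the vitrified pool on arrays 1, 2 and 4 and lower on array 3. The erythroid factor GATA1 was above background in 1 of 8 readings, KLF1 in 2 and the embryonic globin HBE1 in 1. ALAS2, the erythroid enzyme that begins heme synthesis, was above background in all 8 readings, with a log2 fold change of -0.15. AHSP, a chaperone of alpha globin, had 0.13. SLC4A1, also in the erythroid list, had -0.30 with ratios of -0.18, -0.01, -0.68 and -0.32. The median of the 6 tested erythroid genes was 0.08.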
